A study of Mus musculus with 8 samples.

Results

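The 10 genes described here encode the machinery that presents peptides on major histocompatibility complex (MHC) class I, and they were chosen by symbol: H2-K1, H2-D1, B2m, Tap1, Tap2, Tapbp, Psmb8, Psmb9, Erap1 and Nlrc5. All 10 were found among the 31053 genes of the count tables, each as 1 row. Cortical nuclei of 8 mice were profiled by single-nuclei RNA sequencing (snRNA-seq), in which RNA molecules are counted by their barcodes (unique molecular identifiers, UMIs). The 4 mice of the Ifnar1-/- group lacked the first chain of the type-I interferon receptor in every cell, and the other 4 carried the intact gene (Ifnar1+/+, wild type, Wt). Both groups were naive C57BL6J mice labelled as 6 weeks old, with 2 females (F1, F2) and 2 males (M1, M2) each, and the Ifnar1-/- line had been backcrossed onto that strain. Each library came from 1 mouse, so the mouse was the replicate.

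MHC class I molecules carry peptides from inside the cell to its surface, where CD8 T cells read them. A heavy chain, here H2-K1 or H2-D1, pairs with the invariant light chain B2m. Proteasomes cut the peptides, the transporter of Tap1 and Tap2 moves them into the endoplasmic reticulum, the aminopeptidase Erap1 trims them there and tapasin (Tapbp) helps load them. Type-I interferon is known to raise transcription of most of these genes, and Nlrc5 is a transcriptional regulator of the class I genes.

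The upstream sequences of the heavy chains and of B2m are shown because these 3 genes carried most of the UMIs and because their promoters are the textbook case of a shared class I control region. Each stretch comes from RefSeq on GRCm38.p6 and reads toward the gene. Capitals mark, in order along H2-K1 and H2-D1, the motif GGGATTCCC (part of a kappa B site), then GAANNGAAA (part of an interferon response element, here on the opposite strand), then the motif TGACG, and last the motif CCAAT (on the opposite strand). In B2m the interferon response motif is GAAANNGAA and stands before the kappa B motif GGGACTTTC, which lies on the opposite strand.
H2-K1, chr17:34000348-34000462, minus strand, bases -115 to -1 from the start site: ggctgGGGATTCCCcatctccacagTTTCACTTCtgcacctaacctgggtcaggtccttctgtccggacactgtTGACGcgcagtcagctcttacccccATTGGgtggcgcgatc
H2-D1, chr17:35262919-35263033, plus strand, bases -175 to -61: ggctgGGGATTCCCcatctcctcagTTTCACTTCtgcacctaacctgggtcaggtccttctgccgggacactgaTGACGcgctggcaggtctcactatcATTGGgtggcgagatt
B2m, chr2:122147543-122147649, plus strand, bases -144 to -38: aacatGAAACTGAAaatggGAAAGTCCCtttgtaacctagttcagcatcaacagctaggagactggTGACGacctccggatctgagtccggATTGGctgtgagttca

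The stretches of H2-K1 and H2-D1 were identical at 102 of 115 bases (88.7%) and held the same 4 motifs in the same order. Searched on both strands, GGGATTCCC and GGGACTTTC were each present in 0.353% of 32851 promoter windows of 300 bases. GAANNGAAA was present in 7.52% of the windows, GAAANNGAA in 8.56%, the motif TGACG in 20.8% and the motif CCAAT in 37.4%. Of the 8 members with a window, GGGATTCCC and GAANNGAAA were found in the same 2 (H2-K1 and H2-D1), GAAANNGAA in 2 (B2m and Erap1), TGACG in 5 and CCAAT in 6. A match describes the letters only. Tap1 and Psmb9 are divergent neighbours whose start sites lie 226 bases apart, so that their windows share 275 bases. Their TGACG matches are the same site read from either strand, as are their CCAAT matches, so each site was counted for both genes. Tap2 and Nlrc5 are named only.

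Of the genes, 7 lie together on chromosome 17 (GRCm38), in the MHC region. H2-K1 spans 33996017 to 34000347, Tapbp 33915899 to 33929292, Psmb9 34181987 to 34187764, Tap1 34187553 to 34197225, Psmb8 34197721 to 34201454, Tap2 34203527 to 34216321 and H2-D1 35262730 to 35267499. B2m lies on chromosome 2 from 122147686 to 122153083, Nlrc5 on chromosome 8 from 94434356 to 94527272 and Erap1 on chromosome 13 from 74639568 to 74693201. All 10 are annotated as protein coding. Tap1 and Psmb9 overlap on opposite strands, as do B2m and Patl2, and Erap1 and Cast, and Tapbp overlaps Zbtb22 on its own strand. H2-K1 and H2-D1 are near-identical paralogs, and how reads common to both were divided was not tested, so the split between them is uncertain.

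Total UMIs per library ranged from 44063346 to 58423423. Filtering and removal of doublets left 52006 nuclei, which were clustered without integration of the libraries, and a class is a set of clusters whose nuclei carry the markers of a cell type, so that class names stand for nuclei that resemble the type. Glutamatergic neurons comprised 25141 nuclei with a median of 8855 UMIs, GABAergic neurons 5148 (6260.5 UMIs), oligodendrocytes 7299 (2078 UMIs) and microglia 4387 (1472 UMIs). Striatal projection neurons (1824 nuclei), oligodendrocyte precursors (450), astrocytes (160) and border macrophages (94) were smaller, and 7503 nuclei in 12 clusters were left unnamed. Only 384 of 56392 distinct barcodes occurred in more than 1 library. Ifnar1 itself, summed over all nuclei, stood at 16.2 to 19.9 UMIs per 1000000 UMIs (CPM) in Wt and at 13.9 to 16.9 in Ifnar1-/- mice. In microglia it stood at 42.4 to 62.1 CPM in Wt and at 22.9 to 36.2 in Ifnar1-/- mice. Where in Ifnar1 these UMIs map cannot be read from a count table by gene, so this is no check of the deleted part.

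First, the level of each gene was set out by class, as CPM of all UMIs of a class in a mouse. The classes were made by clustering these same nuclei, so the levels of classes are a description and carry no test. In means over the mice of both genotypes, microglia or border macrophages were the highest of 8 classes for all 10 genes. For Nlrc5 this did not hold within the Ifnar1-/- mice. Their microglia stood at 0, 0, 0 and 1.57 CPM and their border macrophages at 0, under their GABAergic neurons at a mean of 2.13. B2m, the light chain shared by all class I molecules, stood at 535 ± 172 CPM in microglia (SD, n = 8 mice) and at 490 ± 331 in border macrophages (n = 6). It followed in oligodendrocyte precursors at 49.4, astrocytes at 33.2, oligodendrocytes at 16.3, glutamatergic neurons at 16.1, GABAergic neurons at 10.8 and striatal projection neurons at 6.16 CPM. The ranges over mice of each pair of neighbours in that order overlapped.

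The heavy chains were ordered differently from each other below the macrophage classes. H2-K1 stood at 283 ± 274 CPM in border macrophages, 215 ± 103 in microglia, 87.1 in astrocytes, 45.3 in oligodendrocyte precursors, 11.8 in oligodendrocytes, 2.82 in GABAergic neurons, 1.02 in striatal projection neurons and 0.877 ± 0.420 in glutamatergic neurons. Oligodendrocyte precursors lay above oligodendrocytes in every mouse, and oligodendrocytes (5.16 to 21.2 CPM) above GABAergic neurons (1.27 to 4.57), while the other neighbours overlapped. H2-D1 stood at 547 ± 571 CPM in border macrophages, 197 ± 125 in microglia and 79.7 in oligodendrocyte precursors. It then levelled off at 16.2 in GABAergic neurons, 11.9 ± 5.93 in glutamatergic neurons, 11.1 in striatal projection neurons, 9.93 in oligodendrocytes and 8.66 in astrocytes, and all neighbours in the order of H2-D1 overlapped.

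In microglia the genes that cut, transport and load peptides had lower counts than the heavy chains and B2m. In glutamatergic neurons Tapbp and Erap1 lay above H2-K1, which stood at 0.877 CPM. Tapbp, the loading chaperone tapasin, stood at 121 CPM in microglia and 6.92 in glutamatergic neurons. The transporter subunits Tap1 and Tap2 stood at 17.9 and 64.4 CPM in microglia, and the immunoproteasome subunits Psmb8 and Psmb9 at 13.04 and 25.2. The trimming enzyme Erap1 reached 47.4 CPM in microglia and 5.03 in glutamatergic neurons. Nlrc5, the regulator of class I genes, was sparse everywhere: 4.45 CPM in microglia, 2.45 in GABAergic neurons and 0.927 in glutamatergic neurons. Its mean of 8.47 CPM in border macrophages rested on 1 UMI.

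**Figure D1:**
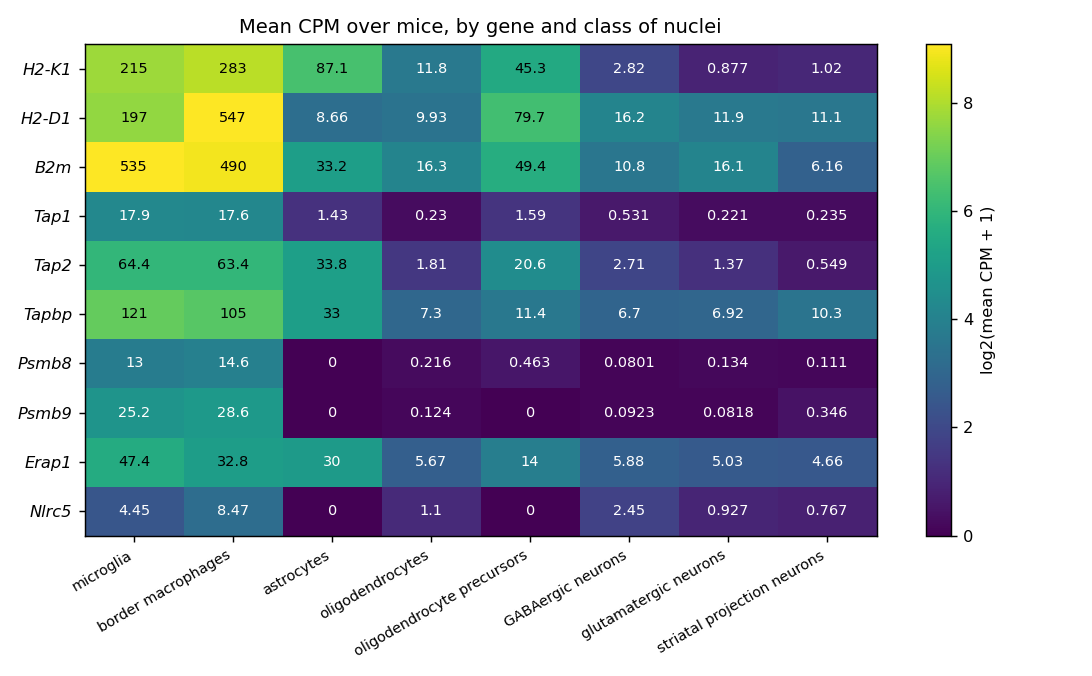
Mean CPM over mice of both genotypes for each of the 10 genes (rows) in 8 classes of nuclei (columns), printed in each cell and coloured by log2(mean CPM + 1). The 2 left columns, microglia and border macrophages, hold the highest value of every row, and H2-D1 exceeds H2-K1 in the neuronal columns but not in astrocytes.

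Counted as UMIs, the genes divided differently between classes. Microglia held 1.79% of all UMIs but 65.8% of the 2259 H2-K1 UMIs, 62.5% of the 144 Psmb8 UMIs and 52.0% of the 244 Tap1 UMIs. Of the 9374 B2m UMIs, 39.2% lay in microglia and 41.8% in glutamatergic neurons. Of the 6770 H2-D1 UMIs, 20.7% lay in microglia and 43.1% in glutamatergic neurons, so that a sum over all nuclei described mainly microglia for H2-K1 and mainly other classes for H2-D1.

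Levels of different genes were compared per kb of gene length. The counts come from a 3' assay of nuclear RNA, for which the fit of a length scaling was not tested. In microglia B2m led at 99.2 CPM per kb, followed by H2-K1 at 49.5, H2-D1 at 41.3, Tapbp at 9.04, Tap2 at 5.03, Psmb9 at 4.36, Psmb8 at 3.49, Tap1 at 1.85, Erap1 at 0.884 and Nlrc5 at 0.0479. In glutamatergic neurons B2m (2.99 CPM per kb) and H2-D1 (2.49) lay above Tapbp (0.517), and H2-K1 came after it at 0.202.

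The ratio of H2-D1 to H2-K1 differed between classes, and was highest in neurons. Per kb, H2-D1 was 12.2 times H2-K1 in glutamatergic neurons (7.94 to 19.6 over 8 mice, 2918 and 218 UMIs) and 5.22 times in GABAergic neurons (3.29 to 7.15). In microglia the ratio was 0.857 (0.471 to 1.06, 1403 and 1487 UMIs), with H2-D1 above H2-K1 in 1 of 8 mice. In oligodendrocytes the ratio was 0.764 (0.526 to 1.33). Astrocytes held 3 H2-D1 UMIs against 31 of H2-K1 in the 6 mice with 10 nuclei or more, and striatal projection neurons 105 against 8. In border macrophages the ratio was 1.78 (0.363 to 3.63 over the mice with an H2-K1 UMI) and in oligodendrocyte precursors 1.55 (0 to 2.95), with H2-D1 above H2-K1 in 5 of 6 and in 6 of 8 mice. The ranges of both large neuronal classes lay above those of microglia and oligodendrocytes, while border macrophages overlapped GABAergic neurons. The part of RNA carried over between droplets in these levels was not tested.

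**Figure D2:**
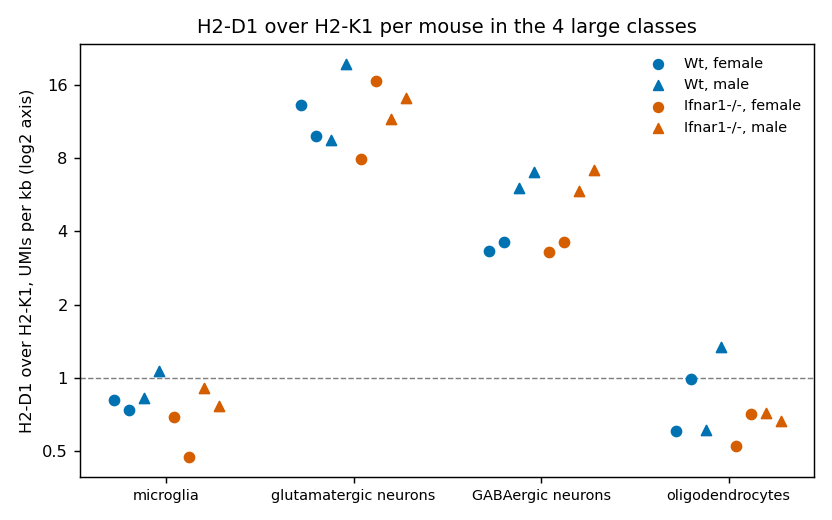
Ratio of H2-D1 to H2-K1 UMIs per kb of gene length (log2 axis) in the 4 large classes, 1 point per mouse, coloured by genotype, with circles for females and triangles for males. The dashed line marks equal levels. Glutamatergic neurons lie between 7.94 and 19.6 and microglia between 0.471 and 1.06.

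Within neurons the genes also differed by subclass, described over 12 subclasses in 8 mice. H2-D1 was highest in Vip interneurons at 32.8 ± 23.7 CPM, followed by Sst interneurons at 19.9 and layer 5/6 near-projecting neurons at 18.5, and was lowest in layer 2/3 intratelencephalic neurons at 5.55 ± 3.18. H2-K1 was highest in Vip interneurons too, at 9.40 ± 4.59 CPM (4.13 to 16.7), with the next subclass at 2.00. B2m was highest in layer 4 intratelencephalic neurons at 28.9 ± 8.81 CPM and lowest in layer 6b neurons at 6.95 ± 2.80. Among interneurons, Nlrc5 was highest in Pvalb (3.39 CPM) and Erap1 in Sst (7.90 CPM) interneurons. In each of these orders the leading subclass overlapped in range with the next.

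Patterns over the sums of 8 classes in each mouse were compared as Pearson's r of log2(CPM + 1) over 60 sums, which share libraries, depth and class, as a description. Among the genes most like H2-D1 were Tyrobp (r = 0.82), Hexa (0.81), Abhd12 (0.80) and Sdf2l1 (0.80). The genes most like H2-K1 were Laptm4a (0.88), Abca1 (0.88), Pdlim5 (0.87), Tmem176b (0.87) and Hsd17b4 (0.86), and those most like B2m were Asah1 (0.91), Ifngr1 (0.89), Serinc3 (0.89), Erp29 (0.89) and Tmem55b (0.88). Between members, r was 0.51 for H2-D1 and H2-K1, 0.70 for B2m and H2-K1 and 0.68 for B2m and H2-D1. No member was among the nearest 5 of another by construction, since members were left out of the ranking.

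The comparison of genotypes asked how these genes stand in the absence of the type-I interferon receptor. In microglia the heavy chains and B2m had lower mean levels in Ifnar1-/- mice, but no member passed the test across all genes. H2-K1 stood at 320, 125, 316 and 351 CPM in Wt F1, F2, M1 and M2, and at 143, 132, 233 and 97.6 in the Ifnar1-/- mice in the same order. H2-D1 stood at 286, 101, 287 and 410 CPM in Wt and at 109, 68.4, 231 and 81.9 in Ifnar1-/- mice. In Wt, 3 of 4 mice lay above every Ifnar1-/- mouse for both heavy chains, and Wt F2 lay among the Ifnar1-/- mice, so the genotypes overlapped. B2m stood at 712, 382, 548 and 831 CPM in Wt and at 514, 363, 577 and 355 in Ifnar1-/- mice, with overlap at Wt F2 and M1.

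The mean of H2-D1 was 271 ± 127 CPM in Wt and 123 ± 74.4 in Ifnar1-/- mice (SD, n = 4), a log2 fold change of -1.14 (standard error 0.44). In the quasi-likelihood test of edgeR its unadjusted p was 0.0236 and, after Benjamini-Hochberg adjustment, 1.00. The mean of H2-K1 was 278 ± 103 and 151 ± 57.6 CPM, a log2 fold change of -0.88 with a standard error of 0.33 (edgeR, unadjusted p = 0.0229, adjusted p = 1.00). The mean of B2m was 618 ± 196 and 452 ± 111 CPM, a log2 fold change of -0.46 (standard error 0.26). Of 9561 genes tested in microglia, 10 were called at an adjusted p under 0.05 (0.105%), and 0 of the 8 members that passed the filter on low counts, with DESeq2 calling 0 members too. At an unadjusted p under 0.05, 2 of 8 members were lower in Ifnar1-/- mice, beside 0.994% of all genes. Of the 8 members, 7 had a log2 fold change below 0, beside 50.5% of all genes, and their median was -0.36, beside -0.0029 over all genes.

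Sex was given by the labels, and with sex as a covariate the spread was smaller. The log2 fold change was then -1.24 for H2-D1 (unadjusted p = 0.00132, adjusted p = 0.473 from edgeR's test), -0.90 for H2-K1 (unadjusted p = 0.00425) and -0.47 for B2m (unadjusted p = 0.0433). None of the 3 was called, beside 0.18% of 10011 genes. Within females, the log2 ratio of mean CPM was -1.13 for H2-D1, -0.69 for H2-K1 and -0.32 for B2m. Within males it was -1.16, -1.01 and -0.56, so the mean was lower in the Ifnar1-/- mice of either sex. Each of these means rests on 2 mice. In females the genotypes overlapped at Wt F2 for all 3 genes, and in males they overlapped for B2m.

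The peptide-cutting subunit Psmb9 stood at 33.6, 19.2, 43.4 and 34.6 CPM in Wt microglia and at 0, 26.1, 28.3 and 16.5 in Ifnar1-/- microglia, a log2 fold change of -0.65 (standard error 0.41, unadjusted p = 0.140 from edgeR's test). Ifnar1-/- F1, the library without a Psmb9 UMI, held only 175051 microglia UMIs, for which the 3-count floor is at 17.1 CPM. The other members lay closer to 0. The log2 fold change was -0.27 (standard error 0.34) for Tap1, -0.06 (0.26) for Tap2, -0.03 (0.25) for Tapbp and 0.01 (0.24) for Erap1. Their intervals were wide, for example from -0.63 to 0.50 for Tap2 and from -0.52 to 0.54 for Erap1. Psmb8, at 10.8 to 21.8 CPM in Wt and 7.46 to 12.3 in Ifnar1-/- microglia, was below the filter on low counts.

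Of the members, Nlrc5 alone had genotypes that did not overlap in microglia. The Wt mice had 17, 4, 4 and 8 Nlrc5 UMIs and the Ifnar1-/- mice 0, 0, 0 and 2. That is 33 against 2 UMIs, a ratio of 14.0 per UMI of the class with a 95% counting interval of 3.58 to 121. In Ifnar1-/- F1 the 3-count floor of 17.1 CPM lay above the highest Wt level of Nlrc5 (14.3 CPM), so that its 0 says little, while the floors of the other 3 Ifnar1-/- mice (3.73, 3.69 and 2.36 CPM) lay under the lowest Wt level (5.47 CPM). Levels without overlap and lower in Ifnar1-/- mice were found in 1.25% of 15553 genes with a mean of at least 1 CPM in microglia. The gene failed the filter on low counts. Without that filter its log2 fold change was -3.53 (unadjusted p = 0.000135, adjusted p = 0.115 from edgeR's test), a value that depends on the prior count. In glutamatergic neurons, with 224 UMIs, Nlrc5 had a log2 fold change of 0.22 (standard error 0.34).

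**Figure D3:**
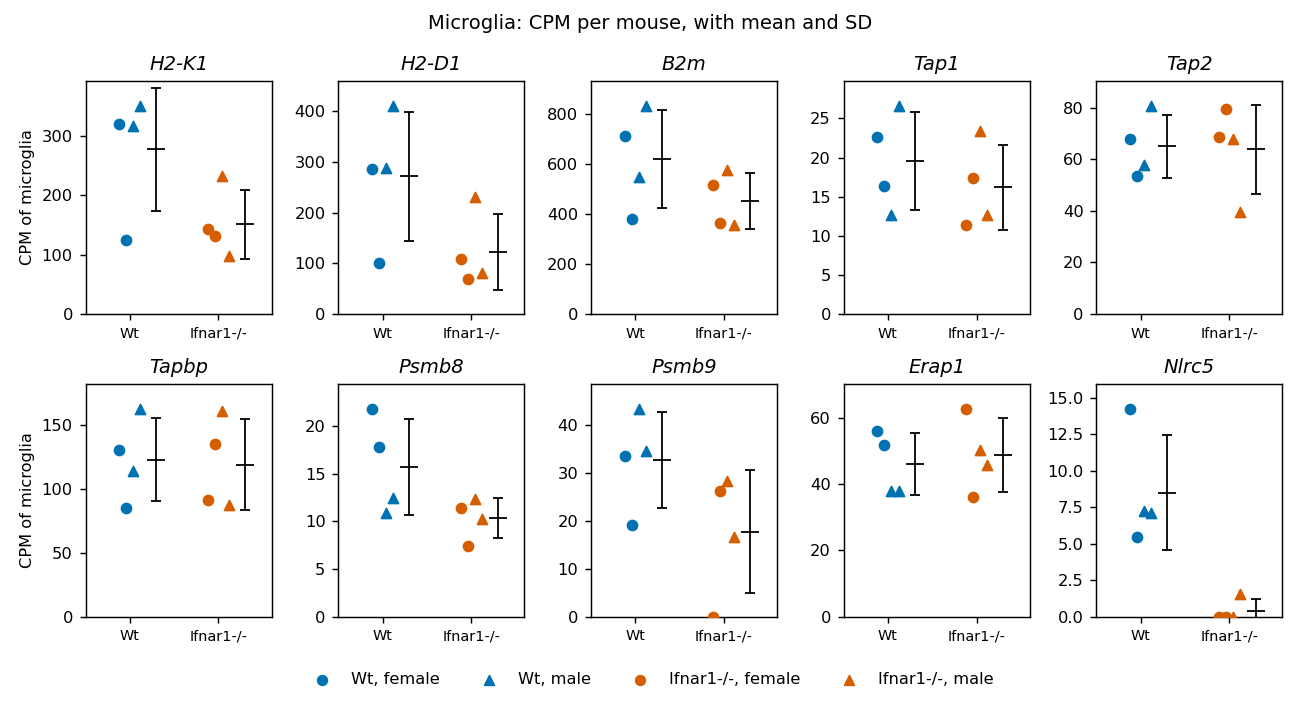
CPM of each of the 10 genes in microglia, 1 point per mouse, blue for Wt and orange for Ifnar1-/-, circles for females and triangles for males. Black marks give the mean and SD of 4 mice, each axis starts at 0, and Nlrc5 is the only panel in which the genotypes do not overlap.

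Shares of microglia with a UMI, pooled over the mice of a genotype, gave the same order of the genotypes. They count the same UMIs as the levels above and are no separate support. Of the 1966 Ifnar1-/- microglia, 765 came from Ifnar1-/- M2. H2-K1 had a UMI in 31.7% of 2421 Wt and 19.2% of 1966 Ifnar1-/- microglia, at median depths of 1430 and 1515.5 UMIs. H2-D1 had one in 30.4% and 16.4%, and B2m in 55.02% and 46.1%. With every nucleus thinned to 1000 UMIs the shares were 23.8% and 13.1% for H2-K1, 22.2% and 12.1% for H2-D1 and 44.1% and 33.6% for B2m, with no test since nuclei are not replicates. In glutamatergic neurons, at medians of 9227 and 8502 UMIs, the thinned shares were 0.0810% and 0.0938% for H2-K1, 1.47% and 1.24% for H2-D1 and 1.59% and 1.48% for B2m. The H2-K1 shares there rest on 10 and 12 nuclei and stand as the background for the shares in microglia.

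Other measures of the microglia were set beside these values. Medians per mouse were 1117 to 1775.5 UMIs per nucleus in Wt and 1081 to 1799 in Ifnar1-/- mice, and mitochondrially encoded UMIs made up 0.92% to 2.04% and 0.75% to 4.44%. The summed level of 8 microglia markers was 16518 to 28855 CPM in Wt and 16357 to 27526 in Ifnar1-/- mice. That of 6 border macrophage markers was 30.1 to 66.9 and 40.2 to 68.6 CPM, with Lyve1 at 0 in both genotypes. That of 6 T and NK cell markers was 300.1 to 454 and 332 to 541 CPM, of which nearly all was Ptprc, a gene of all leukocytes, with Cd3e, Cd3g and Nkg7 at 0. Markers of other brain cells were present too. All 7 astrocyte markers had more CPM in Ifnar1-/- than in Wt microglia, such as Slc1a2 at 183 against 92.4 and Gja1 at 11.4 against 2.50 CPM, and their sum ran from 262 to 616 CPM in Ifnar1-/- and from 293 to 332 in Wt mice. Of the glutamatergic neuron markers 5 of 6 were higher in Ifnar1-/- microglia and of the GABAergic neuron markers 4 of 5, with sums of 95.8 to 333 and 131 to 204 CPM in Ifnar1-/- and 147 to 295 and 83.5 to 275 in Wt mice. These sums overlapped between genotypes, and their part in the lower heavy chain levels was not tested. Microglia fell into 3 clusters that followed sex and mouse rather than genotype alone, and 745 of 765 microglia of Ifnar1-/- M2 formed a cluster almost of their own. Without that mouse the log2 fold change in microglia was -0.95 for H2-D1, -0.67 for H2-K1 and -0.34 for B2m. Without Wt F2 it was -1.41, -1.11 and -0.62. The part of cluster structure in the result was not tested.

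In the other large classes the log2 fold changes of H2-D1, H2-K1 and B2m lay closer to 0 than in microglia. In glutamatergic neurons the log2 fold change was -0.41 (standard error 0.44) for H2-D1, -0.21 (0.47) for H2-K1 and -0.08 (0.24) for B2m, and 0 of 7 members tested were called, beside 0.0652% of 18397 genes. In GABAergic neurons it was -0.27 (0.55), -0.26 (0.43) and -0.24 (0.38), with 0 of 7 called beside 0.029% of 13816 genes. In oligodendrocytes it was -0.65 for H2-D1, -0.27 for H2-K1 and -0.15 for B2m, with 0 of 5 called beside 0.0711% of 11255 genes. Members with a value below 0 numbered 6 of 7 in glutamatergic neurons (49.8% of all genes), 5 of 7 in GABAergic neurons (49.3%) and 4 of 5 in oligodendrocytes (48.8%). At an unadjusted p under 0.05 no member was lower or higher in these 3 classes, beside 1.71%, 1.82% and 1.87% of all genes.

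The members that cut, transport and load peptides ranged from 1683 UMIs (Tapbp) to 20 (Psmb9) in glutamatergic neurons. Tap2 had a log2 fold change of -0.23 (standard error 0.33) in glutamatergic and 0.10 (0.52) in GABAergic neurons. Tapbp stood at -0.07 (0.13), 0.10 (0.22) and 0.21 (0.30) in glutamatergic neurons, GABAergic neurons and oligodendrocytes, and Erap1 at -0.06 (0.14), -0.16 (0.22) and -0.16 (0.39). Nlrc5 stood at -0.39 (0.37) in GABAergic neurons. Tap1, Psmb8 and Psmb9 failed the filter in all 3 classes, with 52, 33 and 20 UMIs in glutamatergic neurons, 20, 3 and 3 in GABAergic neurons and 4, 4 and 2 in oligodendrocytes.

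Summed over all nuclei, all 10 members had a log2 fold change below 0, beside 50% of 19966 genes. It was -0.89 for H2-K1 (unadjusted p = 0.0545 from edgeR's test, adjusted p = 1.00), -0.85 for Psmb9, -0.61 for H2-D1 and -0.38 for B2m. None was called, beside 0.0501% of all genes. In such a sum fewer nuclei of a class and less RNA per nucleus cannot be told apart, and microglia numbered 156 to 765 per mouse, with the lowest number in Ifnar1-/- F1.

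**Figure D4:**
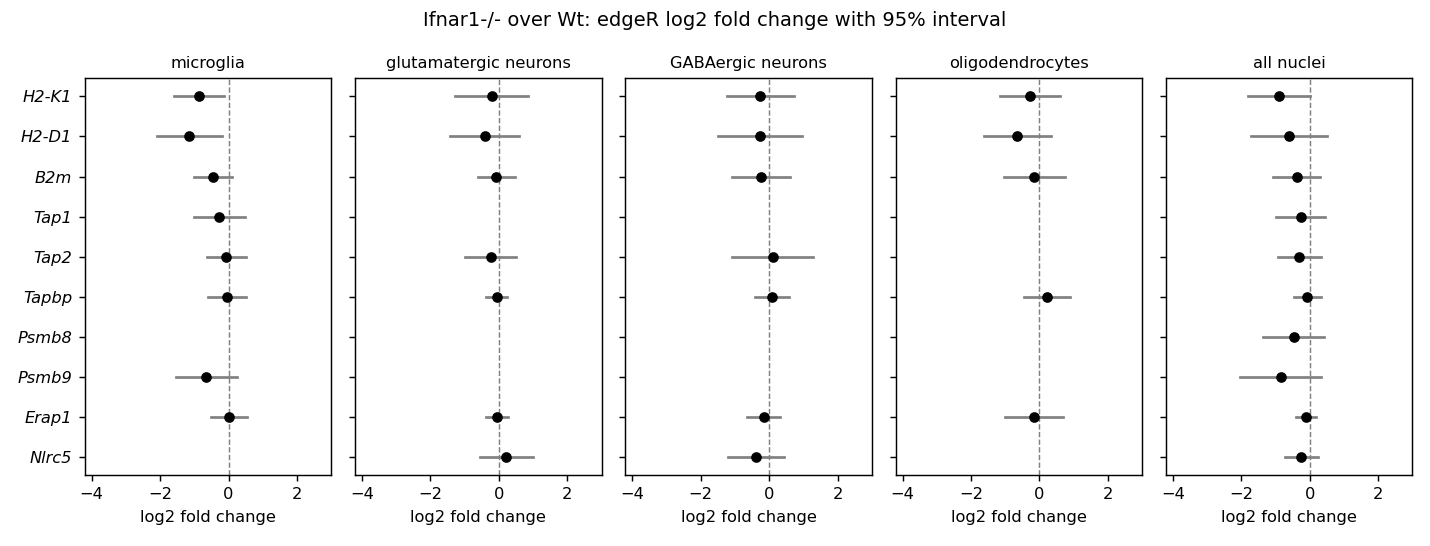
Log2 fold change of Ifnar1-/- over Wt from edgeR for each member that passed the filter on low counts (points) with its 95% interval (lines), in microglia, glutamatergic neurons, GABAergic neurons, oligodendrocytes and all nuclei. In microglia the intervals of H2-K1 and H2-D1 lie below 0, and all others shown include 0.

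Whether the difference between genotypes was larger in microglia than in another class was tested as the interaction of class and genotype, with the mouse as a block. H2-D1 fell short of the threshold against glutamatergic neurons: the difference of the log2 fold changes, microglia minus glutamatergic neurons, was -0.88 (95% interval -1.24 to -0.51, unadjusted p = 2.71e-05, adjusted p = 0.0542 from edgeR's test). Over 15 alternatives the value ranged from -1.03 to -0.67 and the adjusted p from 0.00414 to 1. For H2-K1 the difference was -0.68 (unadjusted p = 0.0207) and for B2m -0.48 (unadjusted p = 0.0308). For Nlrc5 it was -3.90 (standard error 0.98, edgeR adjusted p = 0.395). No member was called by edgeR in the main fit or by DESeq2, beside 0.0437% of 16017 genes. Some other settings of edgeR called members, as given below. In the main fit, 4 of 10 had an unadjusted p under 0.05, beside 4.53% of all genes.

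Against GABAergic neurons the difference of log2 fold changes was -0.98 for H2-D1 (standard error 0.22, edgeR adjusted p = 0.168) and -0.61 for H2-K1 (standard error 0.37), with 0 members called beside 0.0437%. Against oligodendrocytes it was -0.67 for H2-D1 (unadjusted p = 0.0393) and -0.70 for H2-K1 (unadjusted p = 0.0199), with 0 called beside 0.0375%. For Tap2, Tapbp and Erap1 the difference against glutamatergic neurons was 0.08, -0.02 and 0.02, with 95% intervals of -0.62 to 0.77, -0.47 to 0.42 and -0.48 to 0.51.

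The border macrophages, which are tissue macrophages of the meninges and vessels, were few but had the highest heavy chain levels. With F2, M1 and M2 of each genotype (10 to 21 nuclei each), B2m stood at 837, 610 and 850 CPM in Wt and at 395, 80.8 and 165 in Ifnar1-/- mice. H2-K1 stood at 322, 407 and 737 CPM in Wt and at 0, 202 and 27.4 in Ifnar1-/- mice, from 39 and 6 UMIs. H2-D1 stood at 129, 1271 and 1276 CPM in Wt and at 132, 364 and 110 in Ifnar1-/- mice. B2m, H2-K1 and Psmb9 did not overlap between genotypes and were lower in Ifnar1-/- mice, while H2-D1 overlapped through Wt F2. The same was true of 2.8% of 12835 genes with a mean of at least 1 CPM. In this class of 169038 UMIs, 1 UMI takes a gene over that cut. The share thus includes genes too sparse to separate the genotypes, and is no like measure for B2m and H2-K1. Psmb9 had only 1, 1 and 2 UMIs in these Wt mice and 0 in each Ifnar1-/- mouse. Each Wt level of Psmb9 lay under the 3-count floor of its mouse, so its separation says little.

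Only B2m passed the filter on low counts in this class, with a log2 fold change of -1.94 (standard error 0.47, unadjusted p = 0.00227, edgeR adjusted p = 0.423). Without the filter the value was -2.68 for H2-K1 (adjusted p = 0.140) and -2.16 for H2-D1 (adjusted p = 0.176 from edgeR's test). None of 289 genes was called at an adjusted p under 0.05 (0%), and 3.46% had an unadjusted p under 0.05. The class II genes differed between the same mice, with Cd74 at 0, 5593 and 5244 CPM in Wt and at 43.9, 0 and 302 in Ifnar1-/- mice. The part of this in the result was not tested.

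Among the smaller classes, H2-D1 in oligodendrocyte precursors stood at 82.8, 0, 127 and 179 CPM in Wt and at 51.8, 0, 154 and 42.8 in Ifnar1-/- mice, from 15 to 141 nuclei per mouse. The genotypes overlapped for H2-D1, and both F2 mice were at 0. Its log2 fold change was -0.99 (standard error 0.71, edgeR adjusted p = 1.00). Tap2 and Erap1 did not overlap in this class and were lower in Ifnar1-/- mice, as were 1.03% of genes with a mean of at least 1 CPM. Tap2 stood at 27.6, 19.2, 34.2 and 46.8 CPM in Wt and at 18.5, 6.71, 11.8 and 0 in Ifnar1-/- mice, from 17 and 7 UMIs. Erap1 stood at 13.8, 19.2, 14.7 and 39.0 CPM in Wt and at 7.40, 13.4, 0 and 4.28 in Ifnar1-/- mice, from 11 and 5 UMIs. Both failed the filter on low counts, and no library held more than 7 UMIs of either. No member passed the filter in astrocytes, where H2-K1 had 31 UMIs in all.

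The sexes were then compared, with genotype as a covariate, since both genotypes held 2 mice of each. H2-D1 and B2m were higher in males in 3 of the 4 large classes. In glutamatergic neurons, H2-D1 stood at 12.3 and 5.22 CPM in Wt females, 15.8 and 21.3 in Wt males, 8.04 and 5.12 in Ifnar1-/- females and 17.5 and 9.78 in Ifnar1-/- males. In GABAergic neurons the values were 14.7 and 5.07, 23.1 and 28.9, 8.46 and 5.5, and 29.6 and 14.6 CPM in the same order. In both classes the lowest male, Ifnar1-/- M2, lay under the highest female, Wt F1, and the sexes overlapped in that pair only.

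The log2 fold change of males over females for H2-D1 was 1.43 in GABAergic neurons (standard error 0.30, adjusted p = 0.00732), 1.01 in glutamatergic neurons (0.27, adjusted p = 0.0210) and 1.10 in oligodendrocytes (0.30, adjusted p = 0.0193), all from edgeR's test. For B2m it was 0.90 (adjusted p = 0.0220), 0.56 (adjusted p = 0.0158) and 1.04 (adjusted p = 0.0112 from edgeR's test) in the same order. In microglia it was 0.86 for H2-D1 (adjusted p = 0.0675) and 0.23 for B2m (adjusted p = 0.487 from edgeR's test), and neither was called. H2-K1 was not called in any class, at 0.84 in oligodendrocytes (adjusted p = 0.0544 from edgeR's test), 0.78 in glutamatergic neurons, 0.51 in GABAergic neurons and 0.42 in microglia. Of the remaining members, none was called. In glutamatergic neurons 0 members were called without Wt M2 or without Ifnar1-/- M1.

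These calls are 2 of 7, 2 of 7, 2 of 5 and 0 of 9 members in glutamatergic neurons, GABAergic neurons, oligodendrocytes and microglia. The share of all genes called by sex was 30%, 22.4%, 21.3% and 18.9%, and the share called and higher in males 16.4%, 13%, 12.7% and 12.5%. With so large a background the counts say little about the members, and sex and any batch that followed it cannot be told apart. In glutamatergic neurons B2m did not overlap between the sexes, as was true and in the same direction of 20.6% of genes. In oligodendrocytes H2-D1, B2m and Tap2 did not overlap, beside 14.3% of genes. Both shares without overlap are of genes with a mean of at least 1 CPM in the class.

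**Figure D5:**
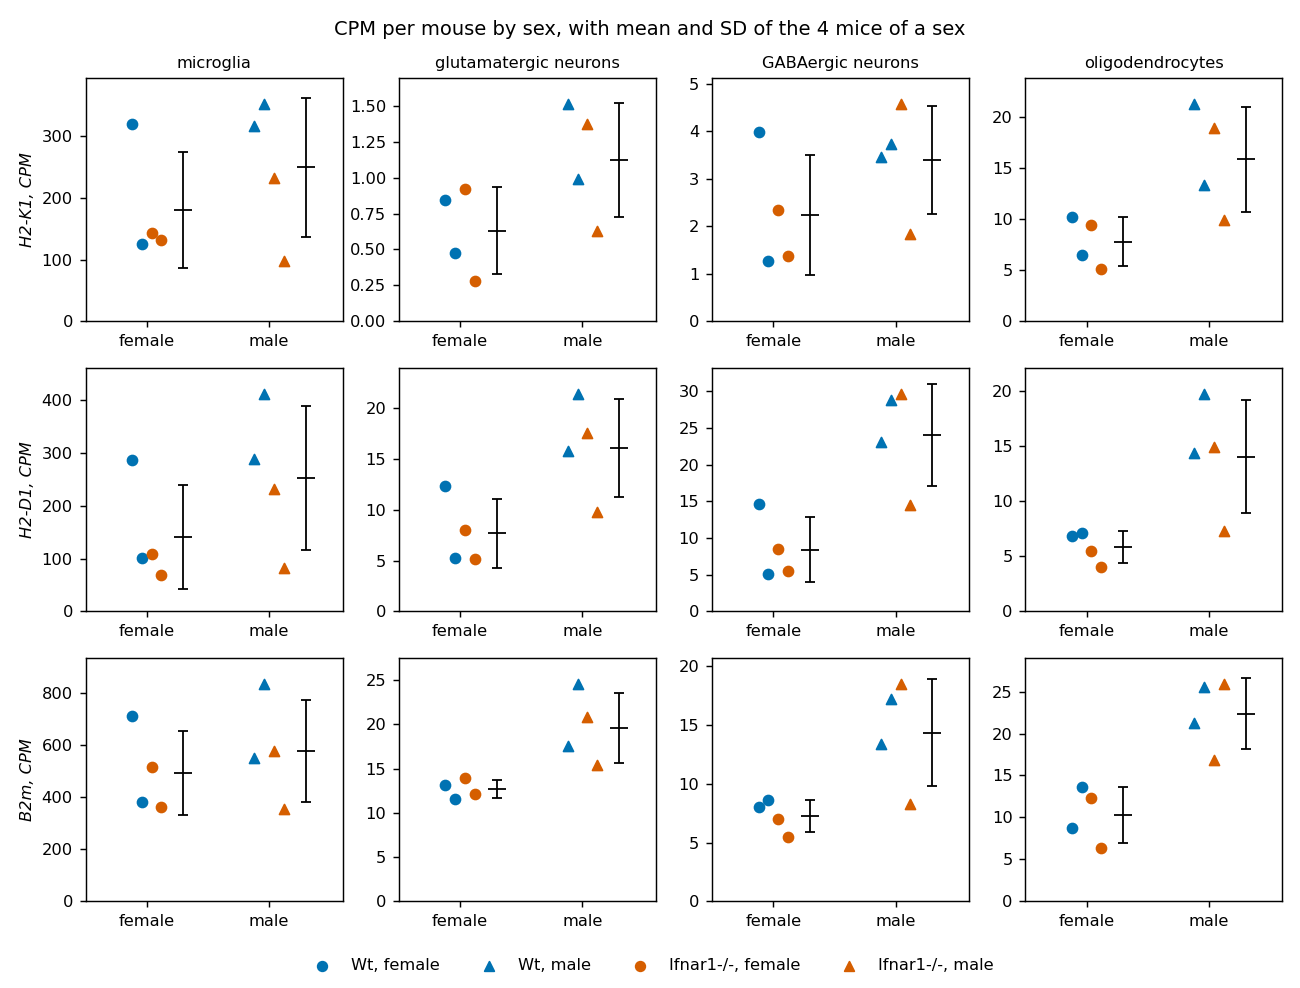
CPM of H2-K1, H2-D1 and B2m (rows) by sex in the 4 large classes (columns), 1 point per mouse, blue for Wt and orange for Ifnar1-/-, with the mean and SD of the 4 mice of a sex in black. Means of H2-D1 and B2m are higher in males in each class, and axes start at 0.

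The wider class I pathway was followed with 8 lists that held 63 further genes of the tables. Among regulators of class I transcription, 13 of 16 genes were tested in microglia, of which 8 had a value below 0 and 5 above, and 1 was called, beside 50.5% of all genes below 0 and 0.105% called. That gene was Irf9, the DNA-binding part of the factor that carries type-I interferon signals to the nucleus. It stood at 61.3, 52.0, 38.0 and 50.5 CPM in Wt and at 17.1, 17.4, 14.8 and 11.8 in Ifnar1-/- microglia, without overlap, and fell by 1.79 on the log2 scale (standard error 0.26, edgeR adjusted p = 0.0273). Stat2 (-0.37), which binds it in that factor, was not called, nor was Nfkb1 (-0.09), Irf2 (-0.16) or Nfyc (0.12). Of the 16 regulators, 15 had a UMI.

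The other class I heavy chains had 13 genes in the tables, of which 4 were tested in microglia. All 4 had values below 0, at -0.71 for H2-T23 (standard error 0.43), -0.66 for H2-M3, -0.34 for H2-T22 and -0.24 for H2-T24, and none was called. H2-Q4, H2-Q6 and H2-Q7 failed the filter with 50 against 20, 14 against 0 and 11 against 0 UMIs in Wt against Ifnar1-/- microglia, and these are near-identical copies whose reads may be divided. Of 3 class I-like genes tested, Cd1d1 stood at -0.60, Fcgrt at -0.01 and Hfe at -0.0023.

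The general loading chaperones had 5 genes tested, with 2 below 0 and 3 above, among them Calr at 0.08, Canx at -0.04 and Hspa5 at 0.17. Among 6 proteasome genes tested, 2 lay below 0 and 4 above. Psme1, an activator subunit, stood at -0.60 (unadjusted p = 0.0458 from edgeR's test), while the immunoproteasome subunit Psmb10 stood at 0.65 (standard error 0.38) and the assembly factor Pomp at 0.44. The constitutive subunits Psmb5 and Psmb7 stood at -0.01 and 0.22. The 6 other trimming peptidases were split 3 and 3, with Lnpep at 0.0017, Npepps at 0.05 and Nrd1 at -0.07.

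Of the MHC class II genes, 4 of 8 were tested in microglia and all 4 had values below 0, with Cd74 at -0.61 (standard error 0.69), H2-DMa at -0.35, H2-DMb1 at -0.36 and H2-Oa at -0.66. Among the receptors of class I molecules, Pirb was the one tested, at 0.07. Of the 42 list genes tested in microglia 26 lay below 0 and 1 was called, beside 50.5% and 0.105% of all genes. In glutamatergic neurons, GABAergic neurons and oligodendrocytes no gene of the 8 lists was called.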

How the data were processed

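Cortical nuclei of 8 mice (4 Wt, 4 Ifnar1-/-) were sequenced with the 10x Single Cell 3' v3 chemistry. The authors deposited raw UMI counts per gene and barcode, which per the file headers came from Cell Ranger 3.1.0 run on an mm10 reference that also counted unspliced RNA. The submitters' processing notes also name Seurat 3.1.5, which was not applied to the deposited counts. Genes were named as in the tables, and coordinates came from a GENCODE annotation of GRCm38. Total UMIs per library ranged from 44063346 to 58423423. The interval of a ratio of UMIs covers counting error only, while intervals of log2 fold changes come from edgeR and hold the spread between mice.

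Of 56780 barcodes, 54341 had 200 to 6000 genes, over 1000 UMIs and under 10% of UMIs from mitochondrial genes, and only these were used. Scrublet (scanpy 1.11.5) called 2335 doublets, which were removed. Leiden clustering (resolution 1, 48 clusters) used the 3000 most variable genes, reduced to 40 principal components, and clusters were named from marker lists. UMIs were summed per class and mouse where a mouse had at least 10 nuclei. Genotypes, the interaction of class and genotype, and sexes were tested with edgeR 4.0.16 (R 4.3.3, limma 3.58.1), quasi-likelihood, TMM scaling and filterByExpr, two-sided, and p-values were Benjamini-Hochberg adjusted over all genes tested in a class. DESeq2 1.42.0 and other settings served as alternatives. CPM in the text was not TMM scaled, and fold changes were. The steps were tested on simulated data. Beyond the mouse of origin and its sex, nothing is known that tells the replicates of a genotype apart. The p-values measure the spread between these mice, which in the main test of genotype includes the difference between the sexes.

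All 10 members were followed in every class, and values in classes with few counts are given only in part. From the pathway lists, those called and the 3 with most UMIs of each list were named, with others chosen after their values were seen (H2-M3, H2-Q4, H2-Q6, H2-Q7, Psme1, Psmb10, Stat2, H2-DMb1, H2-Oa). Some genes that this rule names are not reported here. The members and lists were chosen with earlier results of these data known. The numbers F1, F2, M1 and M2 occur in both genotypes. Deviations from the genotype mean of mice with the same number correlated at 0.22 to 0.69 in all 4 large classes. The main tests of genotype did not pair mice by number. After the mean of each sex was removed the correlation was -0.23 to 0.07. A fit with the replicate block was an alternative.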

Additional observations from a re-analysis of the deposited data

Results flagged for a closer look

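In 99 groups of 4 mice (gene, class and genotype), 10 had a mouse far from the other 3 by Dixon's criterion at 95%. The criterion marks about 1 in 20 groups of normally distributed values. A group with 1 mouse above 0 and the others at 0 passes it by construction, so 10 of 99 was not compared with chance. In microglia, H2-K1 of Wt F2 was low at 124.502 CPM, with the next mouse at 316 and the farthest at 351, and H2-D1 and B2m were lowest of the Wt microglia in the same mouse. Nlrc5 of Ifnar1-/- M2 was 1.57 CPM with the other Ifnar1-/- microglia at 0.

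Several others rest on few UMIs. Tap1 in glutamatergic neurons of Wt M2 was 0.342 CPM. Psmb8 in GABAergic neurons of Wt F2 was 0.211 CPM and Psmb9 in GABAergic neurons of Ifnar1-/- F2 was 0.275 CPM, each with the other 3 mice at 0. Psmb9 in oligodendrocytes was 0.418 CPM in Wt M2 and 0.573 in Ifnar1-/- F2, again with the others at 0. Erap1 was 2.87 CPM in oligodendrocytes of Ifnar1-/- F2 (5 UMIs) and 6.75 CPM in GABAergic neurons of Wt F2 (32 UMIs, with the other Wt mice at 6.00 to 6.09). Tapbp over all nuclei of Ifnar1-/- F1 was 6.85 CPM (271 UMIs), with the others at 10.1 to 10.5.

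Of 50 pairs of gene and class, 2 had genotypes that did not overlap within either sex, in opposite directions in females and males. This count was not compared with chance or with the share over all genes, so it says little about the members. For Tap2 in GABAergic neurons the log2 ratio of mean CPM (Ifnar1-/- over Wt) was 1.34 in females and -0.64 in males, and for Erap1 in glutamatergic neurons it was 0.0825 in females and -0.21 in males. The difference between the sexes was not tested.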

How the results depend on the processing

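No member was called by genotype in any class or in all nuclei under any alternative (median-of-ratios scaling, no filter on low counts, DESeq2, sex as a covariate, the replicate block, doublets kept, over 1500 UMIs per nucleus, cluster resolution 2, and each mouse left out). With the replicate block, which follows the pairing of numbers, 0 members were called in microglia, where H2-D1 stood at -1.17 (adjusted p = 0.267 from edgeR's test), and the block changed no call. In microglia H2-D1 ranged from -1.71 to -0.85 over 16 alternatives (adjusted p 0.219 to 1.00 from edgeR or DESeq2). For the interaction of microglia and glutamatergic neurons, 0 members were called, against 2 without the filter, 1 with sex as a covariate, 1 at resolution 2 and 0 to 1 with a mouse left out (1 without Wt M1 and without Ifnar1-/- F2). Against GABAergic neurons 1 was called without the filter. In both main fits 0.0437% of all genes were called. The share at the other settings was not counted, so these calls say little about the members.

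By sex, microglia had 0 members called, against 1 without the filter, 1 over 1500 UMIs and 0 to 2 with a mouse left out (1 without Wt F1, 2 without Ifnar1-/- M2). Glutamatergic neurons had 2, and 0 to 2 with a mouse left out (1 without Wt F2, 0 without Wt M2 or Ifnar1-/- M1). GABAergic neurons had 2, and 1 to 2 (1 without Wt M2, Ifnar1-/- F2 or Ifnar1-/- M1), and oligodendrocytes 2, and 1 to 3 (1 without Wt F1, F2 or M2). By sex, 18.9% to 30% of all genes were called in the main fits. The share at the other settings was not counted, so these counts say little about the members. Values near 0 changed sign: Erap1 in microglia was -0.0024 without the filter and -0.32 over 1500 UMIs, and Tapbp 0.0498 over 1500 UMIs. With a mouse left out, the log2 fold change in microglia ran from -0.0838 to 0.13 for Erap1, -0.20 to 0.15 for Tapbp and -0.25 to 0.16 for Tap2. In glutamatergic neurons it ran from -0.23 to 0.15 for B2m and -0.60 to 0.0908 for H2-K1, in GABAergic neurons from -0.85 to 0.0499 for H2-D1, in oligodendrocytes from -0.54 to 0.13 for B2m and -0.61 to 0.0316 for H2-K1, and the difference of microglia and oligodendrocytes from -0.72 to 0.11 for B2m. The causes were not tested. Of the other single-gene values, 664 were counted as unchanged, 15 passed the threshold and 11 no longer did. Tested values counted as unchanged kept their direction and side of the threshold, or had no adjusted p. Untested values within a sex were counted as unchanged when they lay within the SD between mice of the main value, whatever their sign. Border macrophages could not be fitted in 1 alternative, in which too few mice had enough nuclei. Nlrc5 and Psmb8 in microglia, and all members in the small classes, were limited by their counts.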
